A study of Mus musculus with 6 samples.

Results

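The cells described here are a small set of T cells of the mouse lung that carried transcripts of Il23r, the signalling chain of the interleukin-23 receptor, or of Zbtb16, the transcription factor PLZF, and no transcript of Cd4, Cd8 or Foxp3. Members were chosen by their own measured UMIs, so the levels of these genes are a description. A barcode was a member when it had at least 1000 unique molecular identifiers (UMIs), at least 500 genes and at most 10% mitochondrial UMIs, at least 2 UMIs of Cd3e, Cd3d and Cd3g together, at least 2 UMIs of Il23r and Zbtb16 together, and no UMI of Cd4, Cd8a, Cd8b1, Foxp3 or Cd79a. In all, 271 of 25704 barcodes that passed the quality limits (quality barcodes) were members, and 5209 of the quality barcodes had the CD3 UMIs and no Cd79a UMI (CD3 barcodes).

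The 6 animals were male human CTLA4-knockin mice on the C57BL/6 background, 12 weeks of age. All 6 were given oropharyngeal bleomycin, an agent that injures the alveolar epithelium and leaves fibrosis, in 2 doses of 1.25 U/kg set 2 weeks apart. From day 21 after the last dose, 3 mice received IgG1, an isotype control antibody, and 3 received ipilimumab, an antibody that blocks human CTLA4. Both were given at 5 mg/kg by intraperitoneal injection, 2 times a week for 4.5 weeks. The right lung was digested and a droplet-based single-cell library, which counts the 3′ ends of transcripts, was made for each mouse. There was no group without bleomycin, and a CTLA4 gene altered by design was shared by both arms. Whether UMIs of the human exons were counted under the mouse gene name Ctla4 was not tested.

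The IgG1 libraries held 42665284, 47919257 and 37666042 UMIs and the ipilimumab libraries held 47897924, 48497310 and 48612412 UMIs (replicates 1 to 3, the order used throughout). Ipilimumab replicate 1 stood apart from the rest, with 22056 barcodes of at least 100 UMIs against 4834 to 6230 in the other 5 libraries. No member barcode was shared between libraries. The median member had 10077, 9009 and 11097 UMIs in the IgG1 mice and 10230, 8236.5 and 8625 in the ipilimumab mice.

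Unconventional T cells carry T cell receptors with little diversity and respond to cytokines without a prior encounter with a peptide antigen. They include γδ T cells, whose receptor uses the Trdc and Tcrg constant genes, natural killer T (NKT) cells and mucosal-associated invariant T (MAIT) cells, which use the Trac and Trbc constant genes. PLZF directs the innate-like behaviour of several of these lineages, and the nuclear receptor RORα (Rora) takes part in the type 17 program, in which interleukin-23 and interleukin-1 sustain the production of interleukin-17A. Cells with T-bet (Tbx21) follow instead the type 1 program of interferon-γ.

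Promoters of Il23r and of 2 type 17 genes are shown as examples that hold a hexamer of known letters that RORα binds, AGGTCA. Each run is the 250 bases before the RefSeq transcript start, in the GRCm38.p6 build, 5′ to 3′ along the gene, and capitals mark AGGTCA or its reverse complement TGACCT. Il17a, the interleukin-17A gene, was taken at chr1:20730655-20730904 on the plus strand, Il23r at chr6:67491856-67492105 on the minus strand, and Actn2, the α-actinin-2 gene, at chr13:12340733-12340982 on the minus strand.
Il17a: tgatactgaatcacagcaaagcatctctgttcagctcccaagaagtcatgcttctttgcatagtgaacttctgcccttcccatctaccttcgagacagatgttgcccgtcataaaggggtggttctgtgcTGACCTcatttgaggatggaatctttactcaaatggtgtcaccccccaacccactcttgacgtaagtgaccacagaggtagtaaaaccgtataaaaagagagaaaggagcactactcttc
Il23r: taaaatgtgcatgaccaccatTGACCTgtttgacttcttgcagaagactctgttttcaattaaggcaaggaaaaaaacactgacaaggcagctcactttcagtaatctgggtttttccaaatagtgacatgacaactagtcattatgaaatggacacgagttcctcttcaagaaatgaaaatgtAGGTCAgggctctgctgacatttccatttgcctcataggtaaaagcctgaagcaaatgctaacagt
Actn2: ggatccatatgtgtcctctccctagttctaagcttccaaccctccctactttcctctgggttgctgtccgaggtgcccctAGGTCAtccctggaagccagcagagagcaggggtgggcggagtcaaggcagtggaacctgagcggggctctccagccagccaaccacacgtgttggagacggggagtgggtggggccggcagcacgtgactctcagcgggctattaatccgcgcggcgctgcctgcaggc
The first base of the hexamer was at -120 in Il17a and at -170 in Actn2, counting the base next to the start as -1, and Il23r held one match on each strand. Of the 32851 RefSeq promoter windows of this length that were read, 14.0% held the hexamer on either strand, so a match is common and describes only the letters. Of the 26 genes of the type 17 list used below, 23 had a window and 7 held the hexamer, where 4260 of all 27025 genes held it. By window, 7 of 33 of the list held it (21.2%). Those without it include Il1r1, Cd163l1, Pxdc1 and Rora itself.

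The labelled markers were first read in the members, without a test. The rule chose the cells by Il23r and Zbtb16, and the other markers were named with earlier results of these data known. Il23r stood at 264, 691 and 180 UMIs per 1000000 UMIs of the members (CPM) in the IgG1 mice and at 581, 579 and 616 CPM in the ipilimumab mice. Zbtb16 stood at 1491, 1804 and 1775 CPM in the IgG1 mice and at 2212, 1681 and 1828 CPM in the ipilimumab mice. Both genes were near 0 in B cells, where at most 0.115% of cells had an Il23r UMI and at most 1.55% a Zbtb16 UMI at median depths of 5257 to 6688.5 UMIs.

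The other labelled markers were present in every mouse. Il1r1, a receptor for interleukin-1, was at 223, 417 and 223 CPM in the IgG1 members and at 442, 312 and 352 CPM in the ipilimumab members, against 0.413 to 6.74 CPM in Cd4 T cells and 0 to 4.53 CPM in Cd8 T cells. Cxcr6, a chemokine receptor of tissue T cells, was at 281 to 442 CPM in the members against 15.4 to 81.2 CPM in Cd4 T cells. These 2 markers did not overlap between the members and either conventional population. Actn2, by contrast, ranged from 42.8 to 249 CPM among the mice, and Ramp3, a receptor activity-modifying protein, was at 258 to 902 CPM in members and still at 121 to 320 CPM in Cd4 T cells.

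The set was mixed by construction. Of the 271 members, 163 had UMIs of both genes, 103 had Zbtb16 only and 5 had Il23r only. The cells with both genes had a median of 6 Il23r UMIs and 17 Zbtb16 UMIs, and those with Zbtb16 only had a median of 10 Zbtb16 UMIs. Their median depths were 9480 and 9259 UMIs. At the edge of the rule, 16 members had exactly 2 UMIs of Il23r and Zbtb16, and 26 barcodes fell just outside with 1. A further 47 barcodes were outside only for a Cd4 UMI, 26 for a Cd8 UMI and 8 for a Foxp3 UMI.

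A Cd4 count of 0 does not exclude a Cd4 T cell at this depth, since 31.6% to 55.6% of CD3 barcodes with a Foxp3 UMI in each mouse had no Cd4 UMI. Transcripts of other lineages were also seen in the members. The 9 macrophage markers summed to 89.2, 2186 and 211 CPM in the IgG1 members and to 50.04, 528 and 2302 CPM in the ipilimumab members. Lyz2, the lysozyme gene of macrophages, reached 440 UMIs in a single member of IgG1 replicate 2. Chil3, another of these markers, reached 899 UMIs in a single member of ipilimumab replicate 3. The 4 neutrophil markers summed to 675, 1369 and 6.11 CPM and to 31.7, 4.40 and 4.96 CPM, with 113 and 174 S100a9 UMIs in the highest member of IgG1 replicates 1 and 2. The 10 natural killer (NK) cell markers summed to 207, 17.4 and 55.0 CPM and to 1016, 33.0 and 203 CPM, and Gzma, a granzyme, was the highest of them in ipilimumab replicate 1 at 664 CPM. B cell markers summed to 47.9 to 82.8 CPM and fibroblast markers to at most 4.40 CPM. Of the 11 markers of type 2 innate lymphoid cells, 4 to 7 were at 0 in each mouse, and of the 7 of type 3 cells, 0 to 4. Endothelial markers summed to 95.6 to 257 CPM, led by Pecam1.

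To learn where these cells differ from conventional T cells of the same lungs, their UMIs were summed in each mouse and compared with sums over 1497 Cd4 T cells and over 2010 Cd8 T cells by edgeR's quasi-likelihood test with the mouse as block. Calls required a Benjamini-Hochberg adjusted p under 0.05 together with a log2 change of more than 1 in either direction. Against Cd4 T cells 744 of 8469 genes were called (8.78%), 480 higher (5.67%) and 264 lower (3.12%) in the members. Against Cd8 T cells 987 of 9329 genes were called (10.6%), 667 higher (7.15%) and 320 lower (3.43%). Of 8433 genes tested in both, 388 were called higher and 153 called lower against both populations, and 478 of these kept 1 sign in every mouse. The members enter both comparisons, so the counts are not independent of each other.

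Genes of the type 17 list were higher in the members as a group. Of its 26 genes, 20 were tested against Cd4 T cells and 18 were called higher, with a median log2 fold change of 3.78 (-0.01 over all genes tested). Against Cd8 T cells 22 of 23 were called higher, with a median of 4.30 (-0.03 over all genes). The list holds the labelled markers Il1r1, Actn2 and Ramp3. The rule did not use these markers, but they were named with earlier results of these data known, so their rise is a description. They are included in these counts and medians, and no count was made without them. No gene of the list was lower.

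Cd163l1, a scavenger receptor of γδ T cells, was 8.58 ± 0.32 (SE) higher than in Cd4 T cells and 4.42 ± 0.24 higher than in Cd8 T cells on the log2 scale (edgeR adjusted p = 2.6e-09 and 4.1e-08).

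Il17a was at 166, 297 and 3.06 CPM in the IgG1 members and at 80.1, 367 and 385 CPM in the ipilimumab members, with 0 to 20.1 CPM in Cd4 T cells. IgG1 replicate 3 lay within the range of the Cd4 T cells and the other 5 mice lay above it, and the log2 fold change of Il17a was 4.44 ± 0.60 (edgeR adjusted p = 0.00012). An Il17a UMI was found in 71 of 271 members, which held 655 UMIs, 66 of them in the highest cell. The share found depends on depth, so a member without a UMI is not shown to lack the transcript. Il17f was 5.06 ± 0.70 higher than in Cd8 T cells on the log2 scale (edgeR adjusted p = 0.00013), and Il22 was not tested.

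Among the genes that set the members furthest above both conventional populations was Pxdc1, at 156, 533 and 254 CPM in the IgG1 mice and 420, 438 and 618 CPM in the ipilimumab mice. It stayed at 0.497 to 6.67 CPM in Cd4 T cells and at most 0.849 CPM in Cd8 T cells, and Pxdc1 was higher by log2 7.28 ± 0.20 and 9.61 ± 0.24 (edgeR adjusted p = 3.9e-10 and 1.6e-10). Blk, a Src-family kinase of B cells and type 17 γδ T cells, was higher by log2 7.73 ± 0.40 and 7.31 ± 0.40 (adjusted p = 3.6e-08 and 5.1e-08). Blk is also a B cell transcript, at 248 to 341 CPM in the B cells of these lungs, and the B cell markers of the members are given above; their part in the Blk level was not tested.

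Sdc1, the heparan sulphate proteoglycan syndecan-1, was higher than in Cd4 T cells by log2 6.07 ± 0.48 and than in Cd8 T cells by 7.52 ± 0.36 (edgeR adjusted p = 1.2e-06 and 1.9e-08). Ppp1r14c, an inhibitor subunit of protein phosphatase 1, was higher by log2 6.58 ± 0.54 and 8.90 ± 0.41, Cdh10, a cadherin, by 6.92 and 9.04, Fstl4 by 7.11 and 8.74, Rbpms2 by 6.90 and 6.76, Abi3bp by 6.89 and 6.38, and Mtcl1 by 7.20 and 5.84. Zfp462, a zinc finger gene, had 224 UMIs in members and 1 in the Cd4 T cells, a ratio of pooled UMIs of 1066 with a 95% counting interval of 189 to 42292. The transcript 1700113H08Rik had 0 UMIs in the Cd4 T cells and was at least 216-fold higher in members, and Fam83a, at 0 UMIs in both, was at least 93.6-fold and 143-fold higher, from a floor of 3 UMIs over the group. Colgalt2, a collagen galactosyltransferase, was the remaining gene of this group, with log2 fold changes of 6.86 and 6.45.

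**Figure D1:**
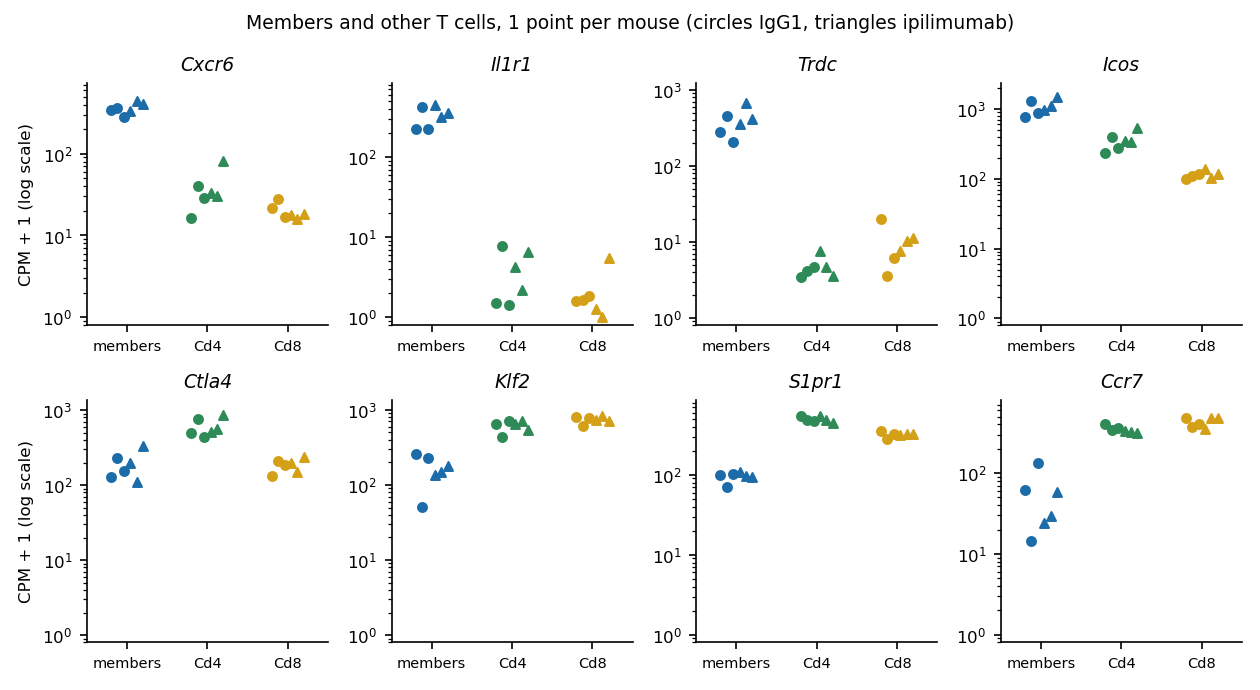
Level of 8 genes in members, Cd4 T cells and Cd8 T cells, 1 point per mouse (circles IgG1, triangles ipilimumab), as CPM + 1 on a log axis. Members lie above both populations for Cxcr6, Il1r1, Trdc and Icos, below both for Klf2, S1pr1 and Ccr7, and for Ctla4 at 110 to 331 CPM they overlap the Cd8 T cells (132 to 240 CPM) and lie below the Cd4 T cells.

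T cell receptor genes separated the members in part. Of the γδ receptor list, 5 of 5 genes tested against Cd4 T cells and 6 of 6 against Cd8 T cells were called higher, with medians of 7.21 and 5.33. Trdc was at 277, 450 and 205 CPM in the IgG1 members and at 355, 673 and 415 CPM in the ipilimumab members, against 2.49 to 6.55 CPM in Cd4 T cells and 2.53 to 18.8 CPM in Cd8 T cells. The log2 fold change of Trdc was 6.62 ± 0.22 and 5.43 ± 0.31 (edgeR adjusted p = 1.2e-09 and 7.3e-08), and Tcrg-C1, a γ chain constant gene, was higher by log2 7.56 ± 0.31 and 7.01 ± 0.30. None of the 3 αβ constant genes passed both limits in either comparison. Of the NKT and MAIT receptor genes only Traj18 was tested, with log2 fold changes of -0.35 against Cd4 and 0.34 against Cd8 T cells, neither called.

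Genes of circulation and the naive state were lower in the members. Of 9 tested, 8 were called lower against each population, with medians of -2.47 and -2.18, and Satb1 was not called. Ccr7, the chemokine receptor that directs T cells to lymph nodes, was at 60.5, 13.5 and 131 CPM in the IgG1 members and at 23.4, 28.6 and 57.8 CPM in the ipilimumab members, against 313 to 399 CPM in Cd4 and 349 to 478 CPM in Cd8 T cells. Ccr7 fell by 2.95 and 3.30 on the log2 scale, with edgeR adjusted p of 6.1e-06 and 2.1e-06. S1pr1, the receptor for egress into blood and lymph, was at 69.5 to 108 CPM in members against 448 to 552 CPM in Cd4 T cells and 280 to 357 CPM in Cd8 T cells, and Klf2, the factor that sustains S1pr1, at 50.2 to 255 CPM against 435 to 709 and 615 to 833 CPM.

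Further down, Igfbp4, which binds insulin-like growth factors, had log2 fold changes of -4.66 against Cd4 T cells and -3.64 against Cd8 T cells (edgeR adjusted p = 5.7e-08 and 1.3e-06). Those of Cd55, a complement regulator, were -3.35 and -3.56, those of Cmah, the hydroxylase of sialic acid, -3.25 and -3.72, those of Rflnb -4.003 and -3.71, and those of Fam169b -3.69 and -3.76. Dapl1 had no UMI in any member and was at least 107-fold lower than in Cd4 T cells and at least 148-fold lower than in Cd8 T cells, and Gm14085, also at 0, was at least 37.6-fold and 44.8-fold lower. The non-coding or unnamed transcripts Gm16158, BE692007 and Gm50218 were the others at this end, with log2 fold changes of -3.35 to -4.61.

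The checkpoint and costimulation list moved in both directions. Against Cd4 T cells 5 of 13 genes were called higher (Tnfrsf25, Pdcd1, Icos, Tnfrsf9 and Cd226) and 3 lower (Tnfrsf4, Ctla4 and Btla). Icos, the inducible costimulator, was at 774, 1288 and 865 CPM in the IgG1 members and at 969, 1098 and 1462 CPM in the ipilimumab members, against 234 to 535 CPM in Cd4 T cells and 98.6 to 134 CPM in Cd8 T cells. No mouse overlapped, and the log2 fold change of Icos was 1.56 ± 0.08 and 3.15 ± 0.13 (edgeR adjusted p = 2.0e-08 and 6.9e-09). Ctla4, the target of the antibody in its human form, was at 127, 230 and 153 CPM in the IgG1 members and at 197, 110 and 331 CPM in the ipilimumab members. The Cd4 T cells lay higher in every mouse, at 445 to 874 CPM, and Ctla4 fell by 1.76 ± 0.13 on the log2 scale (edgeR adjusted p = 5.6e-07). The difference from Cd8 T cells was -0.09 ± 0.13 (edgeR adjusted p = 0.691), within the spread between mice. A Ctla4 UMI was found in 128 of the 271 members and in 5.33% to 6.61% of B cells.

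Against Cd8 T cells 5 of 14 checkpoint genes were called higher and none lower, among them Cd40lg, the CD40 ligand of helper T cells, at 131 to 162 CPM in members and 0.632 to 5.38 CPM in Cd8 T cells. Its log2 fold change was 5.90 ± 0.26 over Cd8 T cells (edgeR adjusted p = 1.2e-08) and 0.52 ± 0.11 over Cd4 T cells, under the fold limit. Pdcd1, which encodes PD-1, was higher by log2 1.60 and 1.78 against the Cd4 and Cd8 T cells, and Tnfrsf25, a death receptor family member with costimulatory function, by 1.79 and 3.97.

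Of the innate-like and killer lectin list, 8 of 15 genes were called higher than in Cd4 T cells, and 8 of 19 higher and 2 lower (Eomes and Klrd1) than in Cd8 T cells. Of the tissue residency list, 4 of 10 (Itgae, Cxcr6, Itga1 and Ahr) and 5 of 10 (Cxcr6, Rgs1, Crem, Ahr and Bhlhe40) were called higher, Cxcr6 being a labelled marker. Of 11 cytokine and effector genes, 5 were called higher than in Cd4 T cells (Il17a, Gzmb, Tnf, Furin and Nkg7; Nkg7 moved under the fold limit without IgG1 replicate 1, at log2 0.84, without ipilimumab replicate 2, at 0.98, and with no low-count filter, at 0.99), and against Cd8 T cells 4 were called higher (Il17f, Areg, Furin and Tnf) and 4 lower (Prf1, Gzma, Ccl5 and Nkg7, the last under the fold limit with members removed at 2 or at 10 other-lineage UMIs, at -0.65 and -0.95). Furin, a protease that processes pro-TGF-β among other precursors, was higher by log2 1.59 ± 0.12 and 2.18 ± 0.19 (edgeR adjusted p = 7.6e-07 and 2.4e-06). Immediate early genes gave 1 of 11 (Fosb) and 4 of 11 called higher, interferon-stimulated genes 1 of 7 lower (Ifi27l2a) and 1 of 7 higher (Ly6a), and genes of cell division 0 of 10 and 1 of 9 (Cdk1). Of the type 2 innate lymphoid markers, 1 of 3 tested was called higher than in Cd4 T cells (Calca, the calcitonin gene, log2 3.03) and 3 of 4 higher than in Cd8 T cells (Calca 6.76, Areg 2.69 and Gata3 2.00). Of the type 3 innate lymphoid markers, 1 of 3 (Nrp1, 1.15) and 2 of 3 (Tnfsf11, 4.85, and Nrp1, 2.61) were called higher, and the part of such cells was not tested.

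The members fell into groups by which of the 2 rule genes they carried, and their other genes were compared between them. Sums over the 163 members with both genes were compared with sums over the 103 members with Zbtb16 only, within each of the 6 mice, by the same test; Il23r itself and Zbtb16 were not tested. This comparison was chosen after the cell counts were seen, because too few members had Il23r only. Of 3681 genes tested, 366 were called (9.94%), 221 higher (6.0%) and 145 lower (3.94%) in the members with both genes, and 310 of the 366 kept 1 sign in all 6 mice. Of the genes tested here, 233 were called higher than in both Cd4 and Cd8 T cells. Of these, 139 were called higher in members with both genes and 6 in members with Zbtb16 only. The 233 genes were chosen on sums over all members, most of which had both genes, so these counts are not independent of that choice.

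Genes of the type 17 list stood higher in the members with both genes. Of 19 genes tested, 17 were called higher and none lower, with a median log2 fold change of 2.29 (-0.03 over all genes). The list was chosen with earlier results known and holds the labelled markers Il1r1, Actn2 and Ramp3, and Il23r UMIs split the groups. The count is therefore a description. Il1r1 was at 755, 469 and 615 CPM in the IgG1 mice and at 675, 505 and 417 CPM in the ipilimumab mice in members with both genes, against 0, 97.1 and 48.8 CPM and 9.53, 11.6 and 101 CPM in members with Zbtb16 only. The ranges did not overlap, and the log2 difference of Il1r1 was 3.97 ± 0.50, given as a value because Il1r1 is a labelled marker.

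Igf1r, the receptor for insulin-like growth factor 1, was at 1348, 1671 and 1634 CPM and at 2071, 2616 and 2094 CPM, against 76.9, 612 and 208 CPM and 248, 422 and 530 CPM. Again no mouse overlapped, and the log2 fold change of Igf1r was 2.64 ± 0.25 (edgeR adjusted p = 8.8e-06). Blk was at 280, 173 and 53.0 CPM and at 226, 383 and 376 CPM, against 0, 58.3 and 4.43 CPM and 14.3, 17.4 and 33.7 CPM. The B cell markers summed to 45.7 to 92.4 CPM and 38.1 to 97.1 CPM in these groups. Blk overlapped by IgG1 replicate 3 of the members with both genes alone, and was higher by log2 3.71 ± 0.43 (adjusted p = 4.8e-05).

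Ret, the receptor tyrosine kinase for the glial-derived neurotrophic factor family, had 32, 53 and 25 UMIs and 89, 62 and 86 UMIs in members with both genes, against 0, 4 and 1 UMIs and 0, 3 and 1 UMIs in the others. It had the largest fold change of the genes called higher, log2 4.64 ± 0.52 (edgeR adjusted p = 3.8e-05). Also among the 10 highest were Cdh10 (3.91), Ppp1r14c (3.88), Zfp462 (3.87), Prelid2 (3.67), Sdc1 (3.67), Cd163l1 (3.57) and Pxdc1 (3.45), all log2 fold changes. The labelled markers Actn2 (1.97), Ramp3 (1.49) and Cxcr6 (1.33), which came with the label and not from the rule, were called higher as well, as was Rora (1.27). The call of Cxcr6 was lost with other-lineage members removed, where its log2 fold change was 1.38 (edgeR adjusted p = 0.126). That alternative rests on fewer mice, as only ipilimumab replicates 1 and 2 kept at least 5 cells of both kinds. Furin was higher by log2 2.07 ± 0.26 (edgeR adjusted p = 1.0e-04).

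Il17a was at 561, 286 and 10.6 CPM and at 123, 472 and 482 CPM in members with both genes, and at 0, 282 and 0 CPM and 0, 202 and 8.42 CPM in members with Zbtb16 only. The groups overlapped, and within a mouse Il17a was higher in members with both genes in all 6 mice. Its log2 fold change was 2.49 ± 0.68 (edgeR adjusted p = 0.0226), and the call was lost without IgG1 replicate 1 (adjusted p = 0.0656), ipilimumab replicate 1 (0.0548) or ipilimumab replicate 3 (0.0662), and without the mouse block (0.0648). Trdc was higher by log2 1.23 ± 0.37 (edgeR adjusted p = 0.0381), a call lost without IgG1 replicate 1, ipilimumab replicate 1 or ipilimumab replicate 2 (adjusted p of 0.144, 0.132 and 0.140) and in DESeq2 (0.0867).

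Part of the innate-like and killer lectin list stood higher in members with Zbtb16 only. Of 12 innate-like and killer lectin genes tested, 6 were called lower in members with both genes (Klrc1, Il12rb2, Klrd1, Tbx21, Cxcr3 and Klrk1) and none higher, with a median of -1.49. Ifng, the interferon-γ gene, had 3 UMIs over all members with both genes and 142 over those with Zbtb16 only, a depth-scaled ratio of 77.5 with a 95% counting interval of 26.0 to 380. In the members with Zbtb16 only Ifng was at 81.4, 204 and 253 CPM in the IgG1 mice and at 114, 81.0 and 67.4 CPM in the ipilimumab mice, and no member sum with both genes exceeded 10.6 CPM.

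Ccl5, a chemokine of cytotoxic and memory T cells, was at 2686, 2525 and 510 CPM and at 5348, 2580 and 1894 CPM in members with Zbtb16 only, against 10.8, 4.94 and 0 CPM and 177, 11.1 and 199 CPM in members with both genes. The ranges did not overlap, B cells stood at 37.8 to 102 CPM, and the log2 fold change of Ccl5 was -5.51 ± 0.52 (edgeR adjusted p = 8.7e-06). Il12rb2, the signalling chain of the interleukin-12 receptor, was at 253 to 495 CPM against 7.41 to 41.1 CPM, a log2 difference of -4.11 ± 0.34 (edgeR adjusted p = 3.2e-06). Tbx21 fell by 2.58 ± 0.36 and Nkg7, a protein of cytotoxic granules, by 2.90 ± 0.28 on the log2 scale (edgeR adjusted p = 0.00023 and 9.8e-06). The 10 NK cell markers moved with these genes in some mice, summing to 294, 68.0 and 79.8 CPM and to 2383, 81.0 and 33.7 CPM in members with Zbtb16 only against 0, 4.94 and 0 CPM and 280, 3.71 and 247 CPM in members with both genes. The part of NK cells was not tested.

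Among the other genes lowest in members with both genes were Ly6c2 (-5.64), Klrc1 (-5.10), Atp8a2 (-4.70), Nmnat2 (-4.54), Gm2682 (-4.40), Pde2a (-4.31) and Gramd3 (-4.25), all log2 fold changes. Of 5 circulation and naive genes tested, Lef1 and Klf2 were called lower. Lef1, a Wnt effector of naive T cells, fell by 3.13 ± 0.22 (edgeR adjusted p = 1.2e-06). Of 8 checkpoint genes, Cd27 (-2.02) and Cd28 (-1.07) were called lower, and Cd28 moved under the fold limit when IgG1 replicate 2 or ipilimumab replicate 2 was left out (-0.99 and -0.95) and with at least 1 UMI of the rule genes (-0.99). Icos was higher by log2 0.95 ± 0.18 (edgeR adjusted p = 0.0019), under the fold limit. It passed that limit without ipilimumab replicate 3 (1.13) and with at least 1 UMI of the rule genes (1.16). It also passed with other-lineage members removed (1.59, on fewer mice, or 1.17 at 10 UMIs). Ctla4 differed by 0.10 ± 0.31 (adjusted p = 0.886).

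The remaining lists gave smaller counts between these groups. Fosb and Fos were called higher of 10 immediate early genes (log2 1.77 and 1.56), Cxcr6 of 6 residency genes, Tcrg-C1 and Trdc of 4 γδ receptor genes, and none of 3 αβ receptor genes (Trac -0.10). Of 6 cytokine and effector genes, Il17a and Furin were called higher and Ifng, Ccl5 and Nkg7 lower. Of 4 interferon-stimulated genes Ifi27l2a was called lower, and none of 3 cell division genes was called. The type 3 innate lymphoid list had 2 genes tested, Nrp1 and Tnfsf11, both called higher. Of the promoters of genes called higher in members with both genes, 11.4% held the AGGTCA hexamer (25 of 219 windows), of those called higher in members with Zbtb16 only 9.76%, and of all genes tested between them 10.9%.

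**Figure D2:**
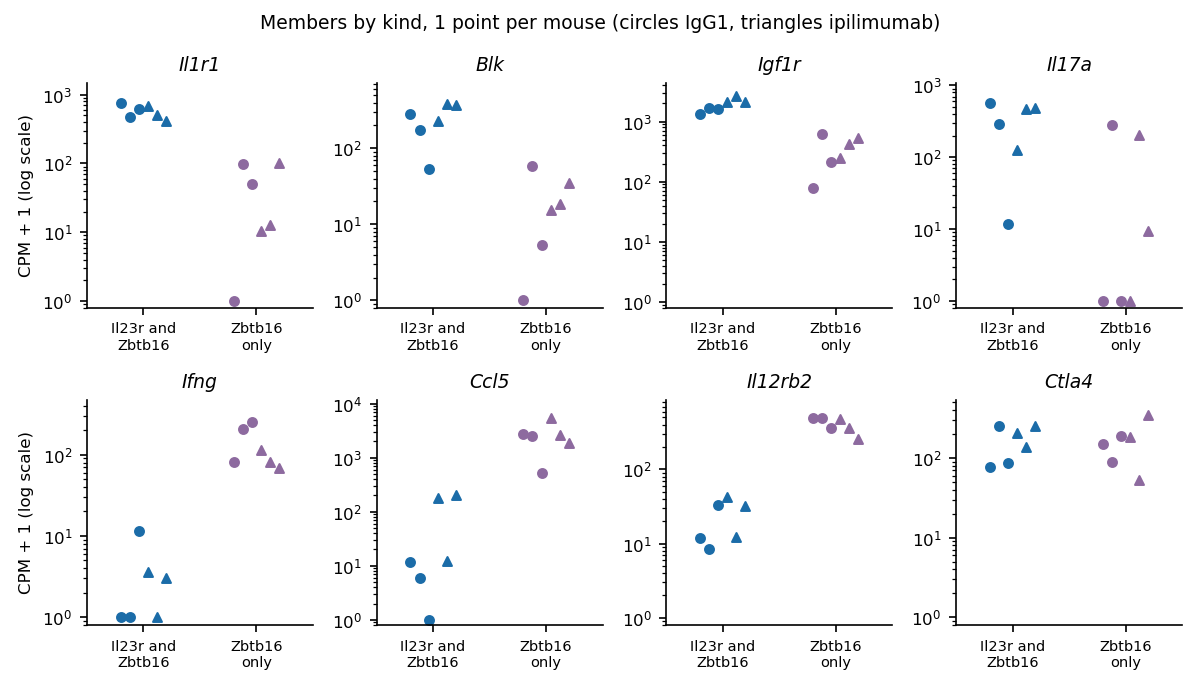
Level of 8 genes in members with Il23r and Zbtb16 UMIs and in members with Zbtb16 only, 1 point per mouse (circles IgG1, triangles ipilimumab), as CPM + 1 on a log axis. Il1r1 and Igf1r are higher and Ifng, Ccl5 and Il12rb2 lower in members with both genes without overlap, while Ctla4 overlaps widely and Il17a overlaps at 10.6 to 282 CPM.

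The receptor genes were read cell by cell, as a description. A Trdc UMI was found in 82 members and a Trac UMI in 173. Both were found in 16 and neither in 32, and 263 had a UMI of a Trbc constant gene, which γδ T cells also transcribe. In B cells, which should lack these genes, at most 0.232% of cells had a Trdc UMI and at most 1.61% a Trac UMI. Trdv4, a variable gene that pairs in lung γδ T cells with Tcrg-V6, was seen in 46 members and Tcrg-V6 in 26, of which 41 and 24 had both Il23r and Zbtb16. Of the NKT and MAIT receptor genes, Traj18 was seen in 44 members, Trav11 in 3, Trav1 in 2 and Traj33 in 3. Traj18 was also seen in 5.81% to 15.8% of the CD3 barcodes without Cd4, Cd8 or Foxp3 UMIs that failed the limit on the rule genes, against 8.0% to 23.1% of members, so these UMIs do not name a lineage.

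Within the 163 members with both genes, the 56 with a Trdc UMI were set beside the 87 with Trac and no Trdc UMI. Their median depths were 8121 and 10402 UMIs. Cd163l1 was found in 82.1% of the Trdc cells and 3.4% of the Trac cells, Trdv4 in 73.2% and 0%, and Blk in 85.7% and 48.3%. Il17a was found in 64.3% and 26.4%, at 963 and 97.9 CPM. Cd28 ran the other way, in 8.9% of the Trdc cells and 66.7% of the Trac cells, as did Cd40lg, in 12.5% and 77.0%.

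Further genes were read in the same 2 receptor groups, without a test. Il1r1 was found in 91.1% and 86.2%, Maf, a transcription factor of interleukin-17 producing cells, in 87.5% and 82.8%, and Ctla4 in 48.2% and 50.6%. Pxdc1 was found in 69.6% of the Trdc cells against 96.6%, and Ccr6, the receptor of the chemokine CCL20, in 14.3% against 34.5% (21.0 and 43.3 CPM). 5830411N06Rik was found in 12.5% against 26.4%, while its levels stood at 86.0 and 102 CPM. By mouse, Il17a in the Trdc cells was at 1810, 825 and 0 CPM in the IgG1 mice (4, 11 and 2 cells) and at 292, 869 and 1840 CPM in the ipilimumab mice (10, 16 and 13 cells), and in the Trac cells at 12.9 to 174 CPM. Cd163l1 did not overlap between them in any mouse, at 663 to 1978 CPM against 0 to 8.2 CPM.

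In the members with Zbtb16 only, 24 cells had a Trdc UMI and 68 had Trac without Trdc. Ccl5 was found in 62.5% and 63.2% of them, Tbx21 in 50% and 69.1% and Il12rb2 in 54.2% and 67.6%. Trgv2, a γ variable gene, was found in 50% of the Trdc cells and Tcrg-V1 in 37.5%, where Trdv4 was found in 12.5%. Il4, the type 2 cytokine gene that NKT cells can transcribe, was found in 16.7% and 19.1%, against 0% and 2.3% of the corresponding members with both genes.

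**Figure D3:**
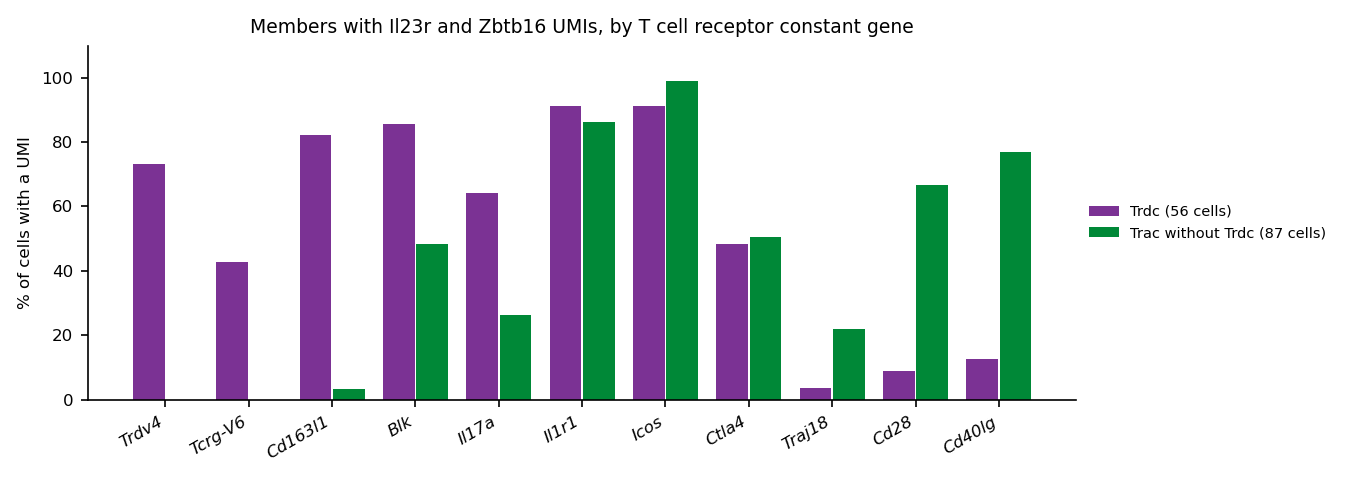
Share of cells with a UMI for 11 genes in the 56 members with Il23r, Zbtb16 and Trdc UMIs and the 87 with Il23r, Zbtb16 and Trac but no Trdc UMI, pooled over 6 mice. Trdv4, Tcrg-V6 and Cd163l1 are nearly confined to the Trdc cells in this set (Cd163l1 82.1% against 3.4%), Cd28 and Cd40lg stand higher in the Trac cells, and Il1r1 and Ctla4 stand close.

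The number of members was then compared between ipilimumab and IgG1, the comparison the treatment was designed for. There were 31, 49 and 26 members in the IgG1 mice and 55, 50 and 60 in the ipilimumab mice, or 0.684%, 1.13% and 0.778% against 1.06%, 1.20% and 1.44% of quality barcodes. IgG1 replicate 2 lay between ipilimumab replicates 1 and 2, so the groups overlapped. The means were 0.865% ± 0.237 and 1.23% ± 0.188 (SD, n = 3 each), 1.43 times higher with ipilimumab, with a two-sided exact permutation p = 0.2 (0.6 adjusted over the 6 shares tested). With 3 mice against 3 the smallest p that this test can give is 0.1. The overlap rested on IgG1 replicate 2 and on ipilimumab replicate 1, the library that stood apart. Without the former the IgG1 mean was 0.731%, and without the latter the ipilimumab mean was 1.32% and both remaining mice lay above all IgG1 mice (exact p = 0.2 in both, the smallest that 3 against 2 can give). It also depended on the UMI minimum. With at least 2000 UMIs a barcode the shares were 0.679%, 1.13% and 0.792% against 1.40%, 1.24% and 1.47%, and with at least 3000 UMIs they were 0.699%, 1.17% and 0.805% against 1.38%, 1.25% and 1.52%, without overlap in either (exact permutation p = 0.1 each).

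Of CD3 barcodes the members made up 3.73%, 6.61% and 3.07% in the IgG1 mice and 6.0%, 5.46% and 6.26% in the ipilimumab mice. IgG1 replicate 2 was the highest of all 6 mice, and the means of 4.47% ± 1.88 and 5.91% ± 0.405 differed by less than the spread of the IgG1 mice (exact permutation p = 0.4, adjusted p = 0.6). Without IgG1 replicate 2 the IgG1 mean was 3.40% and the difference 2.51 percentage points, with no overlap (exact p = 0.2, the smallest that 2 against 3 can give). Without IgG1 replicate 3 the difference was 0.739 (exact p = 0.8), and without IgG1 replicate 1 it was 1.07 percentage points (exact p = 0.8). The 95% Clopper-Pearson interval of IgG1 replicate 2 was 4.93% to 8.65% and that of IgG1 replicate 3 was 2.02% to 4.47%, both covering counting error only. A share of captured cells cannot tell more members from fewer cells of other types.

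The mix of members varied among mice in the same way. Members with both genes made up 38.7%, 73.5% and 30.8% of the members in the IgG1 mice and 61.8%, 58.0% and 73.3% in the ipilimumab mice. The means were 47.6% ± 22.7 and 64.4% ± 7.98 (exact permutation p = 0.4, adjusted p = 0.6), and IgG1 replicate 2 was again above every ipilimumab mouse. The difference of 16.7 percentage points was 29.6 without IgG1 replicate 2 and 8.29 without IgG1 replicate 3, 7.18 with other-lineage members removed and 4.95 with each cell thinned to 1000 UMIs. After thinning, any CD3 UMI and any UMI of the rule genes sufficed, and the kinds were read again from the thinned counts. Members with Zbtb16 only made up 61.3%, 24.5% and 65.4% against 38.2%, 38% and 25% (exact permutation p = 0.4). This difference of -16.7 percentage points was -29.6 and -9.16 without those IgG1 mice in turn, -2.11 with other-lineage members removed and -2.80 after thinning. Members with Il23r only were 0 to 2 cells in each mouse (exact permutation p = 1.0). A Trdc UMI was found in 25.8%, 34.7% and 23.1% of IgG1 members and in 21.8%, 42.0% and 30% of ipilimumab members, with overlapping groups (exact permutation p = 0.7, adjusted p = 0.84).

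**Figure D4:**
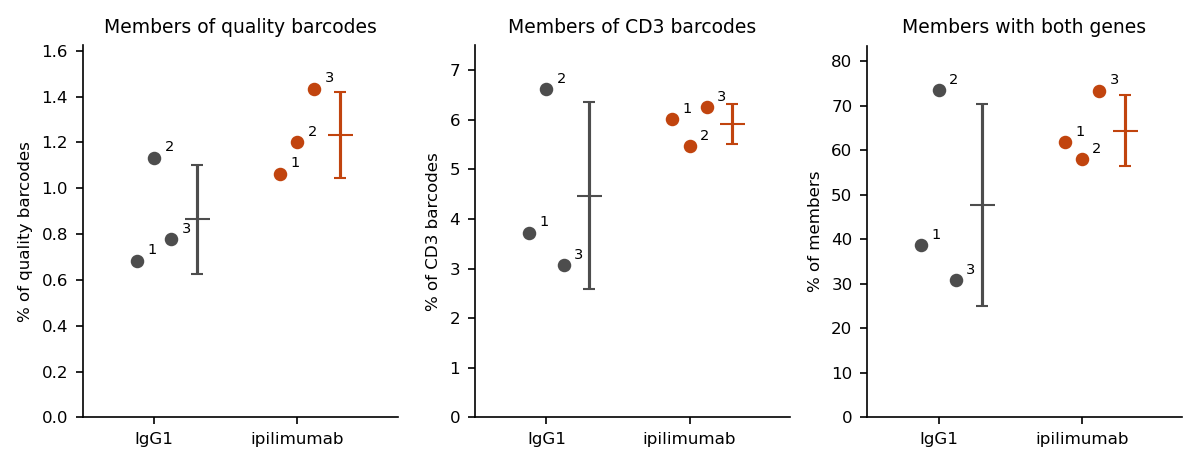
Members as a percent of quality barcodes and of CD3 barcodes, and members with both genes as a percent of members, 1 point per mouse with its replicate number, and the mean ± SD of 3 mice beside the points. IgG1 replicate 2 (1.13%, 6.61% and 73.5%) lies within or above the ipilimumab mice in each panel.

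Expression in the members was compared between ipilimumab and IgG1 on the same sums, 3 mice against 3. No gene of 6215 tested was called by edgeR (0.0%), the lowest adjusted p being 0.891. At an unadjusted edgeR p under 0.05 there were 301 of the 6215 genes, about the share that this limit passes with no change. DESeq2 called 1. The groups did not overlap for 656 genes (10.6%), 307 higher (4.94%) and 349 lower (5.62%) with ipilimumab. That share too is about what 3 mice against 3 give with no change. The genes below are those of lowest p among them and are given as values.

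Scgb1a1, the secretory protein of airway club cells, had 1, 4 and 0 UMIs in the IgG1 members and 75, 24 and 19 in the ipilimumab members. Every ipilimumab mouse was higher, with a log2 fold change of 3.95 ± 0.75 (edgeR adjusted p = 0.891), and it was the gene that DESeq2 called (adjusted p = 0.018). The same order was seen in Cd4 T cells of these lungs, with Scgb1a1 at 8.95, 8.30 and 2.07 CPM against 118, 61.3 and 24.1 CPM. In barcodes of fewer than 100 UMIs it was at 1124, 1943 and 451 CPM against 14557, 13580 and 2524 CPM. Its part in the members was not tested.

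Lgals1, which encodes galectin-1, was at 666, 778 and 590 CPM in the IgG1 members and at 1214, 1265 and 1005 CPM in the ipilimumab members. The groups did not overlap, and the log2 fold change of Lgals1 was 0.77 ± 0.16 (edgeR adjusted p = 0.953). Ankrd28 had 16, 20 and 17 UMIs against 44, 59 and 105, Abt1 10, 25 and 8 against 66, 47 and 45, Tshz3 4, 3 and 3 against 19, 18 and 17, and Hs6st2, a heparan sulphate sulphotransferase, 3, 3 and 0 against 15, 41 and 25. Lower with ipilimumab were Ets2, an ETS factor, with 23, 43 and 21 UMIs against 19, 17 and 14, and Gpr174, a lysophosphatidylserine receptor, and Sh2d3c, with log2 fold changes of -1.51 and -1.80. Gm42418, a transcript that overlaps ribosomal RNA sequence, was lower by log2 -0.65 ± 0.12 in members, and also stood lower in Cd4 T cells (12193 to 14863 CPM against 7866 to 11293 CPM). None of these was called by edgeR over all 6 mice with the low-count filter. With no such filter edgeR called 151 of 16352 genes (0.923%), among them Scgb1a1, Lgals1, Ankrd28, Abt1, Hs6st2, Ets2, Gpr174, Gm42418, Ifng and Actn2, but not Tshz3 or Sh2d3c. That fit kept every gene with any UMI, and its lowest edgeR adjusted p was 7.6e-67. Its calls therefore depend on genes near 0 and are given only as a sensitivity to the filter.

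Of the genes the treatment comparison is about, Ctla4 differed by log2 0.32 ± 0.37 (edgeR adjusted p = 0.958) and Icos by 0.27 ± 0.23 (adjusted p = 0.953) between ipilimumab and IgG1 members. Il17a differed by 0.78 ± 0.79, Ifng by -1.62 ± 0.55 and Il12rb2 by -0.76 ± 0.42 (edgeR adjusted p = 0.953 each). The Ctla4 values overlapped, with ipilimumab replicate 2 the lowest of all 6 mice and ipilimumab replicate 3 the highest. Of the 11 checkpoint genes tested 5 had a positive fold change, with a median of -0.01.

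The type 17 list leaned towards ipilimumab without any gene being called over all 6 mice under the low-count filter. All 23 genes tested had a positive log2 fold change, with a median of 0.47, where 3063 of all 6215 genes were positive with a median of -0.01. Members with both genes made up fewer of the members in IgG1 replicates 1 and 3 than in the other 4 mice, and the part of this mix in the lean was not tested. Within members with both genes alone, 12 of 23 genes were positive, with a median of 0.035, and 2503 of 5070 genes overall. Within members with Zbtb16 only, 11 genes of the list could be tested and 9 were positive, with a median of 0.57, and 1765 of 3491 genes overall. Without IgG1 replicate 2 the median over all members was 1.02, and without any other single mouse it was 0.32 to 0.55. With other-lineage members removed, 10 of 16 genes were positive, with a median of 0.13. Actn2 and Gm42418 were called without IgG1 replicate 2 (edgeR adjusted p = 0.0342 and 0.0327).

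The other lists were as follows over all 6 mice with the low-count filter, each with no gene called. Positive fold changes were found for 2 of 16 innate-like and killer lectin genes (median -0.29), 5 of 9 residency genes (0.18), 1 of 6 circulation and naive genes (-0.27), 7 of 10 cytokine and effector genes (0.36), 0 of 6 interferon-stimulated genes (-0.42), 7 of 10 immediate early genes (0.14), 1 of 9 cell division genes (-0.33), 3 of 6 γδ receptor genes (-0.19) and 3 of 3 αβ receptor genes (0.091). When each mouse was left out in turn, the medians ran from -0.66 to -0.16 for the innate-like list, 0.034 to 0.30 for residency, 0.049 to 0.59 for cytokines and -0.54 to -0.32 for interferon-stimulated genes. They took both signs for the circulation list (-0.60 to 0.059, positive without IgG1 replicate 3), immediate early genes (-0.038 to 0.27, negative without IgG1 replicate 1), cell division genes (-0.63 to 0.48, positive without IgG1 replicate 3), the checkpoint list and both receptor lists. Within members with both genes alone the innate-like list had 4 of 7 genes positive (median 0.14), the circulation list 4 of 5 (0.31) and cell division 7 of 7 (0.48), and within members with Zbtb16 only these were 8 of 16 (-0.0038), 2 of 6 (-0.18) and 1 of 4 (-0.50).

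**Figure D5:**
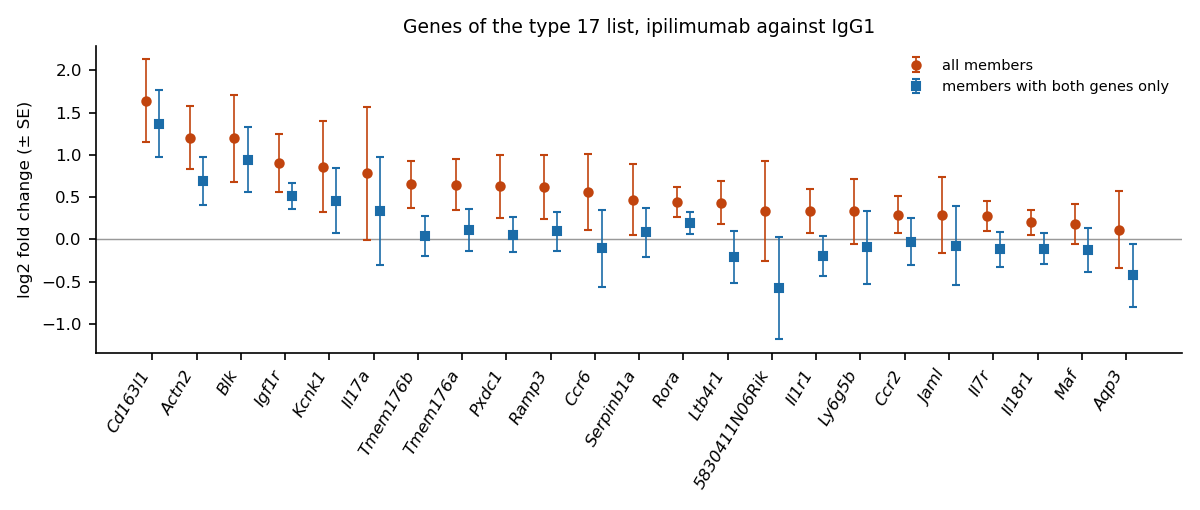
Log2 fold change, ipilimumab over IgG1, with its standard error, for the 23 tested genes of the type 17 list in all members (circles) and in members with both genes only (squares). All 23 circles lie above 0 with a median of 0.47, and 12 of 23 squares lie above 0 with a median of 0.035.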

How the data were processed

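Cells of the right lung of 6 mice were measured, 1 library each, 3 IgG1 and 3 ipilimumab. The authors aligned reads to mm10 (Cell Ranger 7.0.0 in the submitters' processing notes, an earlier version in the file headers) and deposited UMI counts per gene and barcode for every barcode, unfiltered. No cell names of the authors were used. Members, Cd4 T cells (at least 1 Cd4 UMI) and Cd8 T cells (at least 1 Cd8a or Cd8b1 UMI) were taken by their UMIs, without a doublet caller. Both T cell sets had at least 2 CD3 UMIs and fewer than 2 UMIs of Il23r and Zbtb16 together. Neither set had UMIs of Foxp3 or Cd79a, Cd4 T cells had none of Cd8a or Cd8b1, and Cd8 T cells had none of Cd4. Members with at least 2 or at least 10 UMIs of another lineage's markers were removed as alternatives. UMIs were summed per mouse and tested with edgeR 4.0.16 in R 4.3.3 (TMM, filterByExpr, quasi-likelihood, Benjamini-Hochberg over all genes), with DESeq2 1.42.0 as an alternative. Fold changes of genes are those of the edgeR fits at the default prior count, and floors and intervals cover counting error only. A prior count of 2 entered only the correlations between mice. Shares were compared over mice by exact permutation (scipy 1.17.1). The members and gene lists were chosen with earlier results of these data known. A gene of the type 17 list is not reported here and was left out of the list's counts and medians. Named genes were, against T cells, the 15 highest and 10 lowest called with 1 sign in every mouse, between members the 10 highest and 10 lowest, for treatment the 10 lowest p without overlap, and list genes. The main edgeR fit of each comparison was tested on simulated data, and the alternative fits were not. Promoter sequences are from RefSeq (168 of the 221 genes called higher in members with both genes had one). Nothing says that the mice were housed or processed apart, so p-values measure the spread between these 6 samples.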

Additional observations from a re-analysis of the deposited data

How the results depend on the processing

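The treatment comparison rested on 26 to 60 members a mouse and on 6 mice. For the shares, 3 against 3 cannot reach an exact p under 0.1. Doublets were not called. Under all alternatives run, the count of genes called against Cd8 T cells stayed within 1.5 times, and the shares of quality barcodes and of CD3 barcodes kept their direction, while their exact p could not pass the threshold under any; the share of quality barcodes overlapped between the groups at 1000 UMIs and not at 2000 or 3000. Leaving out 1 mouse gave 709 to 767 genes against Cd4 T cells, 925 to 1017 against Cd8 T cells, 323 to 380 between members with both genes and with Zbtb16 only, and 0 to 8 for treatment (8 without IgG1 replicate 2 and 8 without IgG1 replicate 3). With no low-count filter the counts were 1124 against Cd4 T cells, 686 between the members and 151 for treatment, where DESeq2 gave 1. Removing members with 2 or more UMIs of another lineage's markers leaves 5 to 18 members a mouse. Those with both genes were then 7, 8 and 0 in the IgG1 mice and 5, 11 and 7 in the ipilimumab mice. Those with Zbtb16 only were 4, 2 and 4 and 8, 6 and 4. Only ipilimumab replicates 1 and 2 kept at least 5 cells of both kinds. Between the members, on fewer than 6 mice, 109 of only 1071 genes tested were called, 88 of them among the 366 of 3681. With 10 or more UMIs, chosen after seeing the data, 396 were called. The share of members with Il23r only, 0 to 2 cells a mouse, had a difference of -0.07 percentage points that turned to 0.0854 with a 5% mitochondrial limit and 0.0631 with at least 3 rule UMIs, and ran from -1.13 to 0.871 without 1 mouse. The Trdc share ran from -1.95 to 8.14 percentage points without 1 mouse. Directions of uncalled genes turned for Ctla4 with treatment (-0.18 to 0.64 without 1 mouse), Il17a with treatment (-0.77 with other-lineage members removed), Icos and Il12rb2 with treatment in members with both genes (-0.12 and 1.16), Gata3 against Cd4 T cells (-0.15 with other-lineage members removed), Ctla4 against Cd8 T cells (0.011 by total UMIs, -0.21 to 0.0095 without 1 mouse), Ctla4 between the members (-0.15 to 0.30 without 1 mouse) and Trac between them (-0.27 to 0.055). The cause was not tested. Of the named genes, 737, 744, 715 and 295 comparisons with an alternative kept their direction and call against Cd4, against Cd8, between members and for treatment. With the replicate block the shares of quality and CD3 barcodes differed by 0.368 and 1.44 percentage points. The exact paired permutation p was 0.25 and 0.5, the smallest possible being 0.25. With that block 0 genes were called, with a lowest adjusted p of 0.274 in edgeR. Same-numbered mice correlated at 0.126, 0.0959 and -0.103 in their deviations, and differently numbered mice at -0.317 to 0.225. These few values cannot decide whether the numbers pair the mice. The planned comparison of members with Il23r only could not be fitted, as every mouse had fewer than 5.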
